A study of Mus musculus with 6 samples.

Results

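The 10 genes of T cells and cytotoxic lymphocytes were followed in mouse colon that lacked GPR43 or GPR41 or carried both receptors. They are Cd3e, Cd3g, Cd4, Cd8a, Gzma, Gzmb, Prf1, Foxp3, Il17a and Ccl5, out of 18193 genes that the array annotation names. All probe sets annotated to them were taken, which gave 16 of the 45101 on each array. Cd8a had 5 probe sets, Cd4 and Prf1 had 2 each, and the other 7 genes had 1 each.

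The study set colons labelled GPR43 KO, GPR41 KO and WT against each other, with 2 Affymetrix arrays a group. GPR43 (gene Ffar2) and GPR41 (gene Ffar3) are cell surface receptors that sense short-chain fatty acids, which gut bacteria make from fibre. All mice were of strain C57BL/6 and 6 to 8 weeks old. All had received ethanol through the rectum 24 h before colon was taken, and colon without ethanol was not analysed here. The deleted part of each allele, and whether the gene was lost in all cells, is not stated in the labels. The labels do not say that the 2 arrays of a group came from separate animals, so p-values measure only the spread between these samples, which may be technical.

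T cells recognise antigen through a receptor that signals through the CD3 chains, among them those encoded by Cd3e and Cd3g. The coreceptors Cd4 and Cd8a mark helper and cytotoxic T cells. Cytotoxic T cells and natural killer cells kill by releasing perforin (Prf1), which lets granzymes (Gzma, Gzmb) into the target cell. Foxp3 is the defining transcription factor of regulatory T cells, Il17a encodes the main cytokine of Th17 cells, and Ccl5 is a chemokine that activated T cells, natural killer cells and many other cells make. The colon holds many such lymphocytes between its epithelial cells and in the tissue below them. In a bulk tissue sample, fewer cells of a type and less RNA per cell cannot be told apart.

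The promoters of the granzyme genes are shown because Gzma and Gzmb had the largest positive differences among the brightest probe sets of the 10 genes in GPR41 KO against WT. Each runs from 250 bases before to 50 bases after the start of the gene, on the gene's own minus strand, from RefSeq with build GRCm38.p6. That of Gzma lies at chr13:113100932-113101231, and that of Gzmb at chr14:56262285-56262584. Capitals mark matches on either strand to GAAANNGAAA, the core of the interferon-stimulated response element, to TGTGGT, the core that Runx factors bind, and to TGANTCA, the AP-1 site.
Gzma: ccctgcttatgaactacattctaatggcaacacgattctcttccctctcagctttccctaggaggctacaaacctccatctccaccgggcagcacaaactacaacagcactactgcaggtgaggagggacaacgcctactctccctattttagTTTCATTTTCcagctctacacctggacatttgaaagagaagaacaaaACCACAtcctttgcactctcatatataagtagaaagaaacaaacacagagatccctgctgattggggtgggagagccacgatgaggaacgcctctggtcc
Gzmb: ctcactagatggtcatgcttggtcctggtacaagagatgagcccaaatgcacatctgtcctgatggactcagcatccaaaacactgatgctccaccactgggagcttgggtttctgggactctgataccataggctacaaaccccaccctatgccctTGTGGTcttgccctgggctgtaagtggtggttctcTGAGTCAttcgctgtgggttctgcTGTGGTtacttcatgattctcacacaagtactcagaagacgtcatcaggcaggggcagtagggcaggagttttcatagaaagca
Gzma held 1 match to GAAANNGAAA, read on the other strand and starting 97 bases before the start of the gene, and 1 to TGTGGT, also on the other strand. Gzmb held 2 matches to TGTGGT and 1 to TGANTCA, and none to GAAANNGAAA. No match overlapped another. The table held promoters of 8 of the 10 genes. Of these 8, 1 held GAAANNGAAA, 4 held TGTGGT (Gzma, Gzmb, Prf1 and Il17a) and 2 held TGANTCA (Gzmb and Il17a). Among all 32851 promoters of that length, the shares were 3.44%, 16.8% and 7.81%. A match describes the letters and does not show a binding site.

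The values are MAS5 signals, an intensity per probe set on a linear scale, and signals of different probe sets cannot be compared with each other. The 15 markers of colon epithelium were above background in all 3 groups. Their summed signal was 487349 and 436632 in GPR43 KO, 417962 and 418471 in GPR41 KO, and 318470 and 376113 in WT, and for 9 of the 15 all 4 KO arrays lay above both WT arrays, against 10.3% of all probe sets. In limma 1 of them passed, in GPR41 KO against WT, where 0.309% of all probe sets were called higher. This was Aqp8, a water channel, which read 5394 and 7516 in GPR43 KO, 7725 and 6871 in GPR41 KO, and 2840 and 1106 in WT. It rose by 2.03 in GPR41 KO against WT (adjusted p = 0.0383), a call that was lost without any 1 of the 4 KO arrays (0.107 to 0.358), with the larger pseudocount (0.0528) and with the mean over probe sets (0.0511). With that mean the difference of Aqp8 stayed at 2.03, and only its adjusted p changed. The part of the shift in epithelium markers in the values of the T cell genes was not tested. Ffar2 checks the label GPR43 KO, and its signal was 1598 and 189 in the arrays labelled GPR43 KO, 1857 and 1933 in GPR41 KO, and 1194 and 1118 in WT. The library labelled GPR43 KO replicate 1 thus carried Ffar2 signal above both WT arrays, against its label, and the values of the T cell genes in that group are given with and without it. No probe set is named for Ffar3, so the label GPR41 KO was not checked. Neutrophil markers set the groups far apart, with summed signals of 3308 and 1263 in GPR43 KO, 1278 and 1126 in GPR41 KO, and 78376 and 143047 in WT. As a sign of RNA quality, the Gapdh 3' to 5' ratio lay between 0.778 and 0.858.

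Background was read from 83 probe sets of olfactory, vomeronasal and bitter taste receptor genes, whose 95th percentile lay between 65.4 and 86.6 in the 6 arrays. A gene was counted as above background in a group where its brightest probe set exceeded that level in both arrays of the group. By this count, Cd3g, Cd8a, Gzma and Ccl5 were above background in all 3 groups. Cd3e was above it in GPR43 KO and GPR41 KO, Gzmb in GPR41 KO, and Prf1 in GPR43 KO and WT. The remaining 3 genes, Cd4, Foxp3 and Il17a, were near background in every group, so they are given as values with no fold change. Of the 16 probe sets, 4 exceeded background in all 6 arrays and 6 in none.

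**Figure D1:**
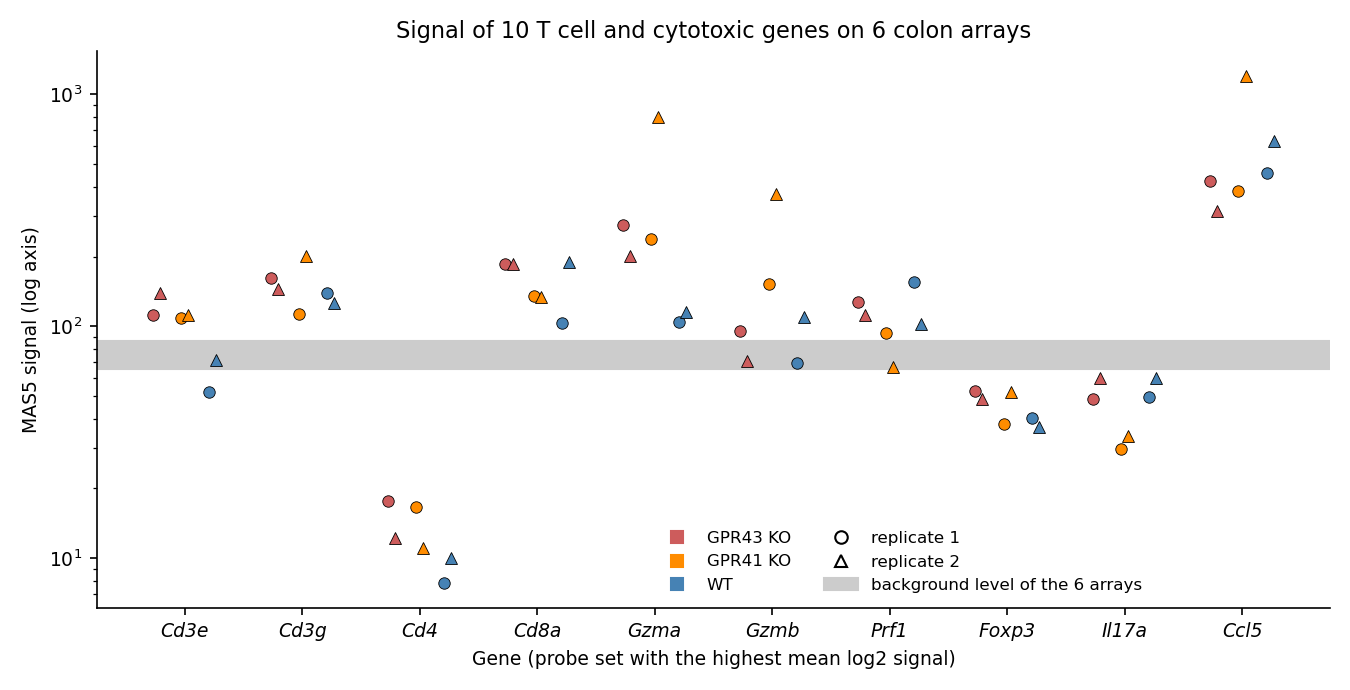
MAS5 signal on a log axis for the brightest probe set of each of the 10 genes, 1 point per array, coloured by group and shaped by replicate; the grey band spans the background levels of the 6 arrays (65.4 to 86.6). Cd4, Foxp3 and Il17a lie below the band in every array, and the triangles of GPR41 KO stand highest for Cd3g, Gzma, Gzmb and Ccl5.

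Among the receptor chains, Cd3e, which encodes the CD3 epsilon chain, had signals of 112 and 139 in GPR43 KO, 108 and 112 in GPR41 KO, and 52.1 and 71.4 in WT. All 4 KO arrays lay above both WT arrays. Group means were 126 ± 19.1 in GPR43 KO, 110 ± 2.41 in GPR41 KO and 61.7 ± 13.6 in WT (SD, n = 2 each). On the log2(signal + 18) scale, on which all fold changes here are given, the limma fit put GPR43 KO 0.85 ± 0.36 (SE) above WT, with a 95% interval of 0.03 to 1.68 and an adjusted p of 0.424. GPR41 KO stood 0.69 ± 0.36 above WT (adjusted p = 0.564), and the KO groups differed from each other by 0.16 (adjusted p = 0.987). None of these passed the threshold of 0.05. Without the library labelled GPR43 KO replicate 1, the value for GPR43 KO against WT was 0.99 (adjusted p = 0.566), and that against GPR41 KO was 0.30 (adjusted p = 0.998).

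Cd3g, which encodes the CD3 gamma chain, had signals of 162 and 145 in GPR43 KO, 113 and 201 in GPR41 KO, and 140 and 127 in WT. The GPR41 KO arrays were the lowest and the highest of all 6, and the GPR43 KO arrays lay just above WT. In limma, GPR43 KO against WT came to 0.18 ± 0.34 (adjusted p = 0.905) and GPR41 KO against WT to 0.17 ± 0.34 (adjusted p = 0.92). The intervals of these differences ran from -0.59 to 0.95 and from -0.60 to 0.93, so they held both higher and lower values. When the library labelled GPR43 KO replicate 1 was left out, GPR43 KO stood at 0.11 against WT (adjusted p = 0.968) and at -0.06 against GPR41 KO (adjusted p = 0.999). Cd3e and Cd3g encode chains of the same complex. They did not show the same order of arrays, since WT was lowest for Cd3e and GPR41 KO replicate 1 was lowest for Cd3g.

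Of the coreceptors, Cd4 lay far below the background level on both its probe sets. Its brighter probe set read 17.6 and 12.2 in GPR43 KO, 16.6 and 11.1 in GPR41 KO, and 7.86 and 10.1 in WT. The dimmer one ranged from 2.94 to 16.8. The order of such values cannot be told from background.

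Cd8a, the alpha chain of the coreceptor of cytotoxic T cells, had 5 probe sets that gave different pictures. The brightest, 1440164_x_at, read 185 and 186 in GPR43 KO, 135 and 134 in GPR41 KO, and 103 and 190 in WT. The WT arrays spanned the whole range, and no difference passed the test: 0.36 ± 0.33 for GPR43 KO against WT (adjusted p = 0.762), -0.05 ± 0.33 for GPR41 KO against WT (adjusted p = 0.982) and 0.42 ± 0.33 for GPR43 KO against GPR41 KO (adjusted p = 0.928). With the GPR43 KO library that carried Ffar2 signal left out, the values for GPR43 KO stood at 0.36 (adjusted p = 0.855) and 0.42 (adjusted p = 0.998). The ending x_at marks a probe set whose probes may also read other sequences. A second probe set of Cd8a, 1451673_at, read 99.2 and 97.3 in GPR43 KO, 89.8 and 113 in GPR41 KO, and 16.6 and 24.7 in WT. On it all 4 KO arrays exceeded background and neither WT array did.

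Because WT was near background on 1451673_at, its fold is a bound: at least 1.37-fold higher in GPR43 KO and at least 1.41-fold higher in GPR41 KO than in WT. This probe set was picked for a bound because its p was the smallest among those of Cd8a other than the brightest. Background levels were 85.8 and 86.6 in GPR43 KO and 79.0 and 81.9 in GPR41 KO. Its KO signals lay below the highest background probe set of each array (164, 121, 111 and 151), so nothing is read from the bound. Each bound sets the mean log2 signal of the KO group against that of the background levels of the WT arrays. It allows for signals below background and takes in no spread between arrays. The bounds given for other genes below were made in the same way, with the dimmer group set to its background levels. The limma values were 1.60 ± 0.40 for GPR43 KO against WT (adjusted p = 0.159) and 1.63 ± 0.40 for GPR41 KO against WT (adjusted p = 0.142), and neither passed. For GPR43 KO the value was 1.59 (adjusted p = 0.425) with its replicate 1 left out. The probe set 1425335_at read 68.2 and 145 in GPR43 KO, 70.2 and 92.9 in GPR41 KO, and 75.7 and 42.5 in WT, so its groups overlapped. The last 2 lay below the background level in every array, with signals of 29.9 to 52.9 on 1444078_at and 3.50 to 33.2 on 1440811_x_at. With the mean log2 signal over all 5 probe sets, GPR41 KO against WT turned to 0.30.

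**Figure D2:**
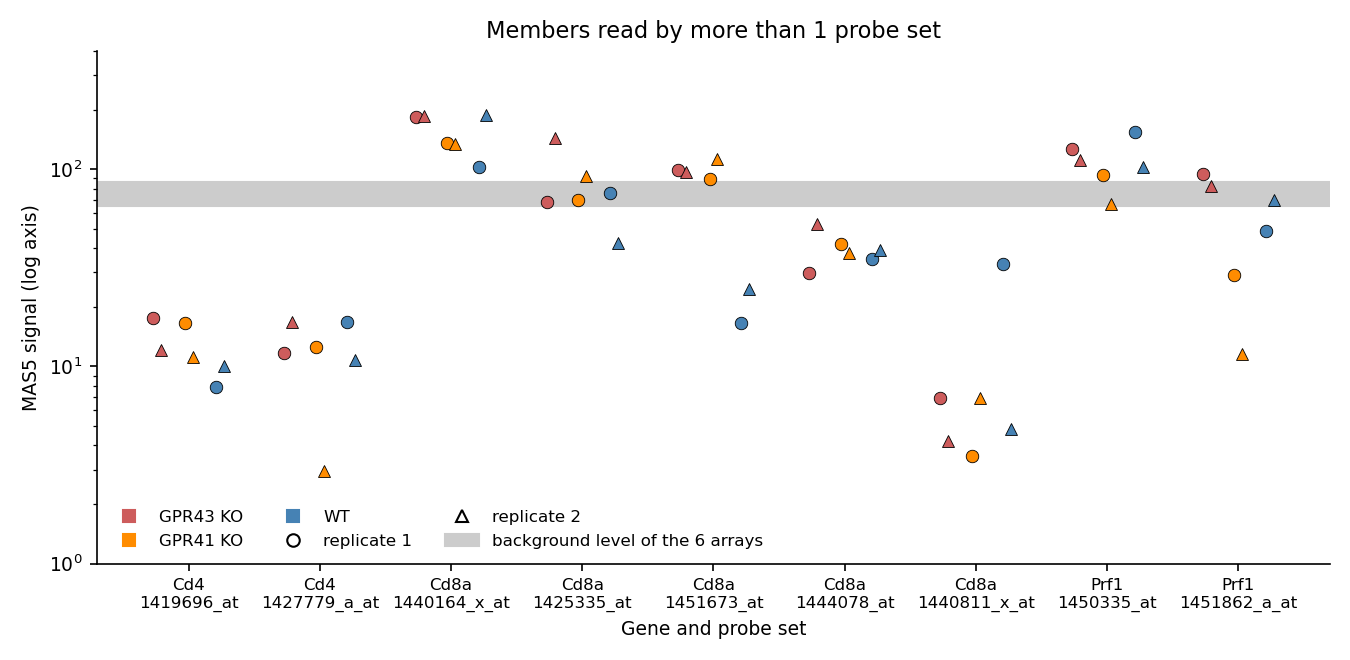
MAS5 signal on a log axis for every probe set of Cd4, Cd8a and Prf1, 1 point per array, coloured by group and shaped by replicate, with the grey band spanning the background levels (65.4 to 86.6). On 1451673_at of Cd8a the WT arrays (16.6 and 24.7) stand below the KO arrays (89.8 to 113), whereas on 1440164_x_at they span them.

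Gzma encodes granzyme A, a protease of cytotoxic granules. It had signals of 273 and 200.4 in GPR43 KO, 238 and 800.1 in GPR41 KO, and 105 and 115 in WT. All 4 KO arrays lay above both WT arrays, and GPR41 KO replicate 2 lay far above the rest. Group means were 237 ± 51.2 in GPR43 KO, 519 ± 398 in GPR41 KO and 110 ± 7.43 in WT (SD, n = 2 each). GPR43 KO stood 0.98 ± 0.47 above WT in limma (1.97-fold, interval -0.09 to 2.04, adjusted p = 0.492). GPR41 KO stood 1.84 ± 0.47 above WT (3.57-fold, interval 0.77 to 2.90, adjusted p = 0.153), which did not pass the threshold.

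For Gzma in GPR41 KO against WT, leaving out GPR41 KO replicate 2 gave 0.999 (adjusted p = 0.509), and leaving out GPR41 KO replicate 1 gave 2.68 (adjusted p = 0.0518). Over all alternatives the adjusted p for this difference ran from 0.0518 to 0.509. Between the KO groups, GPR43 KO was at -0.86 ± 0.47 relative to GPR41 KO (adjusted p = 0.927), and at -0.02 without GPR41 KO replicate 2. Without the library labelled GPR43 KO replicate 1, Gzma in GPR43 KO against WT came to 0.77 (adjusted p = 0.773), and against GPR41 KO to -1.07 (adjusted p = 0.998).

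Gzmb encodes granzyme B, which triggers death of the target cell by cleaving caspases and other proteins. Its signals were 95.2 and 70.9 in GPR43 KO, 152 and 373 in GPR41 KO, and 69.5 and 109 in WT. Both GPR41 KO arrays stood above the other 4, and those other 4 straddled the background level. GPR41 KO stood 1.29 ± 0.45 above WT in limma (2.45-fold, adjusted p = 0.315), which did not pass, and 0.69 above it without GPR41 KO replicate 2 (adjusted p = 0.784). GPR43 KO against WT came to -0.07 ± 0.45 (adjusted p = 0.979), and GPR43 KO against GPR41 KO to -1.36 ± 0.45 (adjusted p = 0.919), or -0.76 without GPR41 KO replicate 2. With GPR43 KO replicate 1 left out, these came to -0.25 (adjusted p = 0.935) and -1.54 (adjusted p = 0.998). The genes Gzmc, Gzmd, Gzme, Gzmf and Gzmg, close relatives of Gzmb, read 0.598 to 42.0 over the 6 arrays, never above background.

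Prf1 encodes perforin, and its 2 probe sets were brightest outside GPR41 KO. On 1450335_at it read 127 and 112 in GPR43 KO, 93.4 and 67.1 in GPR41 KO, and 155 and 102 in WT. GPR41 KO lay below both other groups without overlap. In limma, GPR41 KO against WT came to -0.57 ± 0.37 (adjusted p = 0.667), GPR43 KO against WT to -0.07 ± 0.37 (adjusted p = 0.972), and GPR43 KO against GPR41 KO to 0.49 ± 0.37 (adjusted p = 0.927). With GPR43 KO replicate 1 left out, the values for GPR43 KO were -0.15 (adjusted p = 0.954) and 0.42 (adjusted p = 0.998). On 1451862_a_at it read 94.9 and 82.5 in GPR43 KO, 29.1 and 11.6 in GPR41 KO, and 48.9 and 70.1 in WT. On that probe set no group had both arrays above background, with 1 of 2 above it in GPR43 KO, 0 of 2 in GPR41 KO and 1 of 2 in WT, so no fold is given, and no comparison on it was called.

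The lineage genes of helper cells gave no readable level. Foxp3 read 52.8 and 48.4 in GPR43 KO, 38.0 and 52.1 in GPR41 KO, and 40.5 and 36.8 in WT. Il17a read 48.8 and 60.1 in GPR43 KO, 29.7 and 33.7 in GPR41 KO, and 49.8 and 60.2 in WT. All 12 values lie below the background level of their arrays, so regulatory T cells and Th17 cells could not be followed by these genes at this signal.

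Ccl5, which draws T cells and monocytes through receptors such as Ccr1, had signals of 422 and 315 in GPR43 KO, 383 and 1200.3 in GPR41 KO, and 459 and 632 in WT. The GPR43 KO arrays lay below WT, and the GPR41 KO arrays lay on either side of it. Group means were 369 ± 75.8 in GPR43 KO, 792 ± 578 in GPR41 KO and 546 ± 122 in WT (SD, n = 2 each). In limma, GPR43 KO against WT came to -0.54 ± 0.44 (adjusted p = 0.72) and GPR41 KO against WT to 0.33 ± 0.44 (adjusted p = 0.864). The sign in GPR41 KO rests on replicate 2, since leaving out replicate 2 of GPR41 KO gave -0.47 and leaving out its replicate 1 gave 1.13. With GPR43 KO replicate 1 left out, GPR43 KO stood at -0.74 against WT (adjusted p = 0.765) and at -1.07 against GPR41 KO (adjusted p = 0.998).

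**Figure D3:**
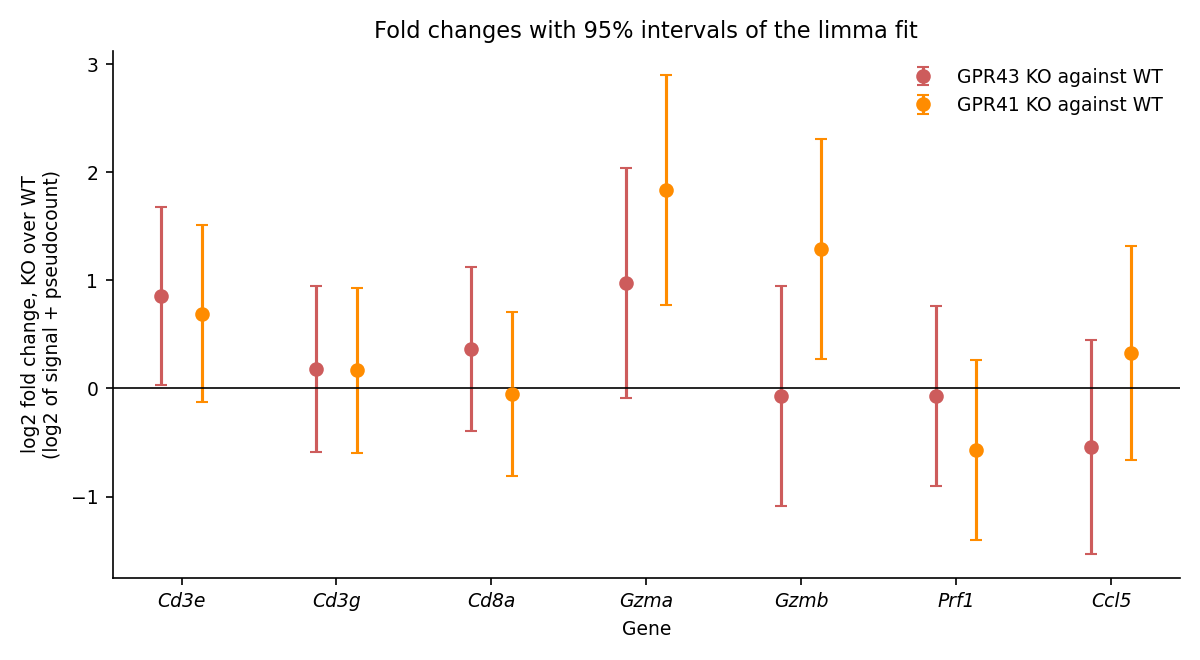
log2 fold change of the 7 genes above background in at least 1 group, as points with 95% intervals of the limma fit, for GPR43 KO against WT and GPR41 KO against WT. The largest value is that of Gzma in GPR41 KO (1.84, interval 0.77 to 2.90), and the intervals of 4 genes cross 0 in both comparisons.

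Over the 10 genes, 0 passed the threshold in GPR43 KO against WT, where limma called 0.762% of all 45037 probe sets tested (0.209% higher and 0.553% lower). In GPR41 KO against WT 0 passed as well, where 1.06% of probe sets were called (0.309% higher and 0.748% lower). In GPR43 KO against GPR41 KO 0 of the 10 genes passed, and so did 0% of all probe sets. At an unadjusted p under 0.05, 1 of the 10 genes was higher in GPR43 KO than in WT (Cd3e, against 5.65% of all probe sets) and 0 were lower (against 5.56%). In GPR41 KO against WT 2 were higher (Gzma and Gzmb, against 4.85%) and 0 lower (against 6.1%). In GPR43 KO against GPR41 KO 0 were higher (against 3.13%) and 1 was lower (Gzmb, against 2.27%). The median log2 fold change over the 10 genes was 0.23 in GPR43 KO against WT, 0.20 in GPR41 KO against WT and 0.09 between the KO groups, beside 0.02, -0.02 and 0.04 over all probe sets. These medians take in Cd4, Foxp3 and Il17a, whose differences are between values near background, and nothing is read from them. Both comparisons with WT use the same 2 WT arrays.

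Groups without overlap were counted in the same way. GPR43 KO lay wholly above WT for 5 of the 10 genes (Cd3e, Cd3g, Cd4, Gzma and Foxp3), against 21.3% of all probe sets, and wholly below for 1 (Ccl5), against 19.2%. GPR41 KO lay wholly above WT for 4 (Cd3e, Cd4, Gzma and Gzmb), against 18.8%, and wholly below for 2 (Prf1 and Il17a), against 22%. GPR43 KO lay wholly above GPR41 KO for 4 (Cd3e, Cd8a, Prf1 and Il17a), against 20.8%, and wholly below for 1 (Gzmb), against 14.6%. All 4 KO arrays exceeded both WT arrays for 3 genes (Cd3e, Cd4 and Gzma), against 10.3%, and lay below for 0, against 10.8%. Cd4, Foxp3 and Il17a are in these counts although their values lie near background. The counts take only the brightest probe set of each gene. Cd8a on 1451673_at, where all 4 KO arrays exceeded both WT arrays, is thus not in them. With 2 arrays a group the precision was low: the 95% intervals of the 7 genes above background reached 1.69- to 2.09-fold on either side, and an exact permutation test of 2 against 2 arrays cannot go below a two-sided p of 0.333.

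GPR41 KO replicate 2 was the highest of the 6 arrays for 4 of the 10 genes (Cd3g, Gzma, Gzmb and Ccl5), against 15.8% of all probe sets. Genes induced by interferon were high in the same array. These genes answer the cytokines that cells release on viral infection and other alarms. Of 25 such genes with a probe set, 24 were highest in GPR41 KO replicate 2, and their summed signal was 53142 and 44964 in GPR43 KO, 48399 and 95614 in GPR41 KO, and 40531 and 54184 in WT. Relative to the WT mean, the median over the 24 genes above background was -0.01 and -0.46 in GPR43 KO, -0.23 and 1.35 in GPR41 KO, and -0.20 and 0.20 in WT. In GPR41 KO replicate 2 Gzma stood at 2.68, Gzmb at 1.89 and Ccl5 at 1.13 on the same scale. The other members were not put on this scale. Cd3g read 201 in that array. Prf1 went the other way and was lowest there, at 67.1 and 11.6 on its 2 probe sets, both below the background level of 81.9. What sets that array apart was not tested.

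**Figure D4:**
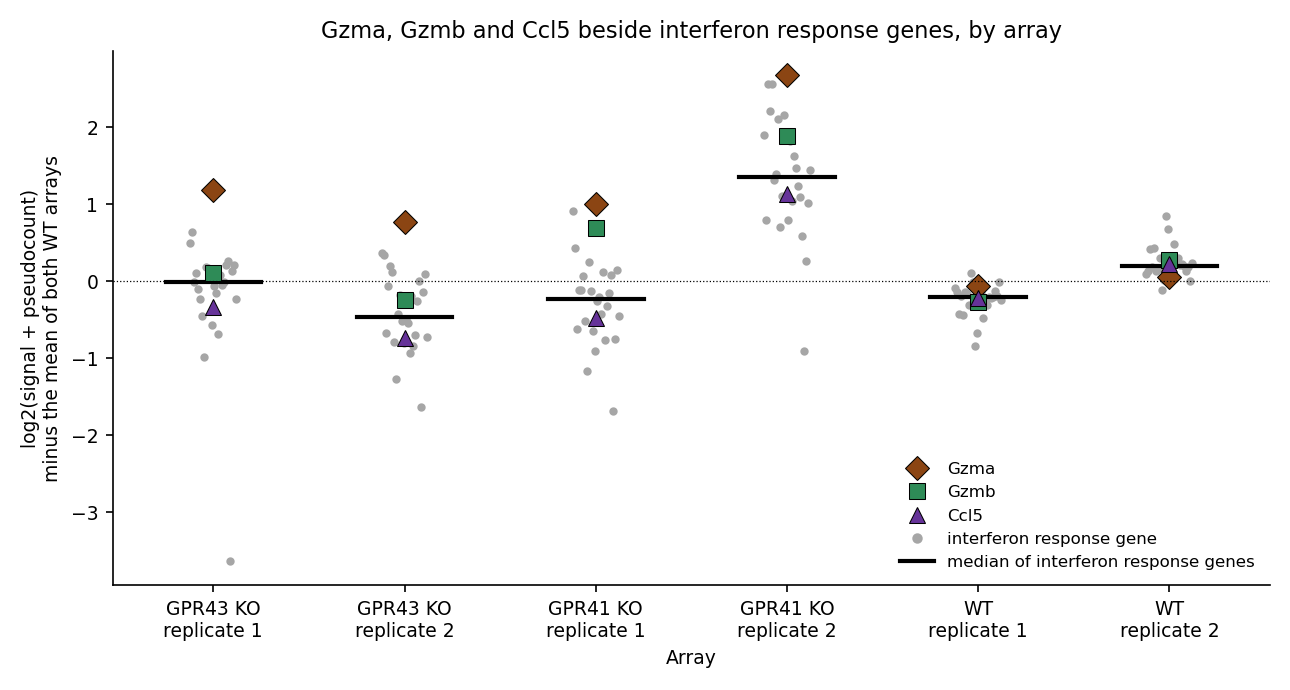
log2(signal + 18) minus the mean of both WT arrays, by array, for 24 interferon response genes (grey points, with their median as a bar) and for Gzma, Gzmb and Ccl5. In GPR41 KO replicate 2 the interferon median is 1.35 and Gzma, Gzmb and Ccl5 stand at 2.68, 1.89 and 1.13, whereas in GPR41 KO replicate 1 the median is -0.23.

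Irf7, the transcription factor that drives much of the interferon response, was called in GPR41 KO against WT. It had signals of 2291 and 2089 in GPR43 KO, 3075 and 6096 in GPR41 KO, and 1522 and 1729 in WT. In limma it rose by 1.41 ± 0.27 (adjusted p = 0.0499), and it was the 1 interferon gene called of 25 in that comparison, where 0.309% of all probe sets were called higher. Without GPR41 KO replicate 2 it came to 0.92 (adjusted p = 0.15). The call was also lost without WT replicate 1 or 2, or without either array labelled GPR43 KO (adjusted p = 0.143 to 0.188). It was lost as well with quantile normalization (0.0696), the larger pseudocount (0.0715) and the mean over probe sets of each gene (0.0595). Irf7 has 1 probe set, so under that mean its difference stayed at 1.41 and only its adjusted p changed.

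The genes whose pattern over the 6 arrays was most like that of a member were sought among 1477 genes that were above background in all arrays and spanned at least 1 on the log2 scale. For Ccl5 they were Bst2, Oas2 and Irgm1, interferon-induced antiviral genes, with Pearson r of 0.996, 0.995 and 0.994 (Spearman rho 0.943, 1 and 1). For Gzma they were Apol7a, Irf7 and Ifih1, a sensor of viral RNA, with r of 0.986, 0.964 and 0.947 (rho 0.943, 0.943 and 1). Without GPR41 KO replicate 2, r over the other 5 arrays was 0.991, 0.985 and 0.982 for the genes like Ccl5, and 0.971, 0.854 and 0.976 for those like Gzma. For Cd3g they were Ngb, Atf7 and Tmem35a (r of 0.989, 0.971 and 0.963), and for Cd8a Syngr3, Hmga2 and Plscr4 (r of 0.971, 0.96 and 0.925). All points share the same 6 arrays, and the highest of many correlations over so few arrays is high by selection. Of the 9 of these 12 genes with a promoter in the table, 3 (Ifih1, Bst2 and Irgm1) held GAAANNGAAA, against 3.44% of all promoters. The match of Ifih1 lies after the start of the gene. The promoters of Apol7a and Irf7, also among the genes likest Gzma, held none. A link between these letters and the pattern over arrays was not tested.

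Other genes of the T cell receptor and its signalling were counted in the same way. Of 30 listed, 23 had a probe set and 8 were above background in at least 1 group. In GPR43 KO against WT 0 of the 23 rose and 1 fell (Lcp2), where 0.209% of all probe sets were called higher and 0.553% lower, with a median of -0.04, beside 0.02 over all probe sets. In GPR41 KO against WT 1 of the 23 rose (Zap70) and 2 fell (Fyb and Lcp2), where 0.309% of all probe sets were called higher and 0.748% lower, with a median of 0.01, beside -0.02 over all probe sets. Their summed signal was 3405 and 3030 in GPR43 KO, 3131 and 3422 in GPR41 KO, and 3258 and 3672 in WT, with the groups overlapping.

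Zap70, the kinase that binds the phosphorylated CD3 chains, read 641 and 757 in GPR43 KO, 823 and 709 in GPR41 KO, and 375 and 319 in WT on its brightest probe set. It rose by 1.10 ± 0.18 in GPR41 KO against WT (adjusted p = 0.0251) and differed by 0.97 ± 0.18 in GPR43 KO against WT (adjusted p = 0.0534). The difference in GPR43 KO passed under quantile normalization (0.0476), a pseudocount of 1 (0.0439), with probe sets above the 40th percentile only (0.0345), and with 1 probe set a gene (0.0204). Its other 2 probe sets read 22.4 to 88.9 and were above background in both arrays of no group, and the mean over its probe sets gave 0.47 (adjusted p = 0.522) in GPR41 KO against WT. Leaving out 1 array ended the call of Zap70 in 5 of 6 cases: the adjusted p was 0.147 without WT replicate 2, 0.288 and 0.151 without replicate 1 and 2 of GPR41 KO, 0.0607 when the library labelled GPR43 KO replicate 1 was left out and 0.0633 without GPR43 KO replicate 2.

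Lcp2 and Fyb encode adaptor proteins that T cells share with myeloid cells. Lcp2 read 71.98 and 129 in GPR43 KO, 129 and 180 in GPR41 KO, and 487 and 665 in WT, with 1 of the 2 GPR43 KO arrays above background. It fell by 2.35 in GPR43 KO (adjusted p = 0.0163) and fell by 1.78 in GPR41 KO (adjusted p = 0.0427) against WT. With quantile normalization the call in GPR41 KO was lost (adjusted p = 0.0638). Its second probe set lay near background in every array, with signals of 12.3 to 80.9, and the mean over both ended the calls (adjusted p = 0.263 and 0.467). Fyb read 234 and 204 in GPR43 KO, 178 and 193 in GPR41 KO, and 480 and 535 in WT, and fell by 1.37 in GPR41 KO against WT (adjusted p = 0.0214). In GPR43 KO against WT its difference was -1.15 (adjusted p = 0.0576), which passed with a pseudocount of 1 (0.0486), with probe sets above the 40th percentile only (0.0312) and with 1 probe set a gene (0.0199). Its second probe set gave -0.72 in GPR41 KO with no call (adjusted p = 0.439), and the mean over both gave -1.04 (adjusted p = 0.0639). With 1 array left out, the call of Fyb was lost each time (adjusted p = 0.0508 to 0.211). Those of Lcp2 were lost in GPR43 KO each time except without WT replicate 1 (0.0376), with adjusted p of 0.0558 to 0.154, and in GPR41 KO each time except without the library labelled GPR43 KO replicate 1 (0.0489), with 0.0561 to 0.357.

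Of 30 further genes of cytotoxic and natural killer cells, 29 had a probe set, 8 were above background in at least 1 group and 0 were called in any comparison. Among all probe sets, 0.762% were called in GPR43 KO against WT, 1.06% in GPR41 KO against WT and 0% between the KO groups. At such shares, 0 of 29 says little about these cells. At the smallest p in GPR41 KO against WT was Il2rb, the receptor chain for interleukins that sustain these cells. It read 113 and 111 in GPR43 KO, 19.3 and 23.7 in GPR41 KO, and 97.5 and 127 in WT. GPR41 KO was near background and lay below both other groups. By the same kind of bound, without spread, it was at least 1.38-fold lower than WT, and the limma adjusted p of 0.108 did not pass. Its other probe set read 16.3 to 63.2, below background. Cd244a, a receptor of natural killer cells, read 11.4 and 33.0 in GPR43 KO, 48.8 and 25.3 in GPR41 KO, and 94.5 and 149.5 in WT, also with no call (adjusted p = 0.19 and 0.346). Klrg1 went the other way without a call, at 87.6 and 122 in GPR43 KO, 123 and 106 in GPR41 KO, and 52.9 and 77.1 in WT. All 4 KO arrays lay above both WT arrays for 4 of the 29 (Gzmd, Klrg1, Serpinb9 and Cst7), against 10.3% of all probe sets. They lay below for 2 (Crtam and Cd244a), against 10.8%. Gzmd, Cst7 and Crtam were near background in every group.

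Of 12 genes of regulatory T cells other than Foxp3, 10 had a probe set, 4 were above background and 0 were called. Of 17 genes listed for the interleukin 17 lineage, its receptors and innate lymphoid cells, 11 had a probe set, 7 were above background and 0 were called. Among all probe sets, 0.762% were called in GPR43 KO and 1.06% in GPR41 KO against WT, so 0 of 10 or 0 of 11 says little. Batf, a transcription factor of Th17 cells, read 158 and 84.1 in GPR43 KO, 94.3 and 91.5 in GPR41 KO, and 260.04 and 263 in WT. Its groups of KO arrays lay below WT, with limma adjusted p of 0.281 and 0.157. All 4 KO arrays lay below both WT arrays for 3 of the 11 (Batf, Il17ra and Il17rb), against 10.8% of all probe sets. They lay above for 1 (Il17rc), against 10.3%. Il17ra, Il17rb and Il17rc encode receptor chains for interleukin 17 family cytokines, and the cells that carried their signal were not identified. Il17rc read 2879 and 2498 in GPR43 KO, 3270 and 2423 in GPR41 KO, and 1948 and 1923 in WT (limma adjusted p = 0.315 and 0.236).

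Of 20 listed receptors of Ccl5 and chemokines that act on T cells, 17 had a probe set and 11 were above background in at least 1 group. Of the 17, 3 fell in each of GPR43 KO and GPR41 KO against WT, the chemokines Ccl3 and Ccl4 and the receptor Ccr1, and 0 rose. Among all probe sets, 0.553% were called lower in GPR43 KO and 0.748% in GPR41 KO. Ccl3, a chemokine that shares receptors with Ccl5, read 15.2 and 2.03 in GPR43 KO, 1.57 and 3.54 in GPR41 KO, and 2856 and 5542 in WT. It was at least 46.2-fold lower in GPR43 KO (adjusted p = 0.000389) and at least 49.4-fold lower in GPR41 KO (adjusted p = 0.000276) than in WT. Ccl4, its close relative, read 195 and 125 in GPR43 KO, 108 and 253 in GPR41 KO, and 1330.1 and 3659 in WT, and fell by 3.67 in GPR43 KO (adjusted p = 0.0132) and fell by 3.59 in GPR41 KO (adjusted p = 0.011). Ccr1, a receptor of Ccl5, read 265 and 215 in GPR43 KO, 192 and 163 in GPR41 KO, and 799 and 1191 in WT, and fell by 1.95 in GPR43 KO (adjusted p = 0.00986) and fell by 2.35 in GPR41 KO (adjusted p = 0.00316). Its second probe set was near background, and the mean over both gave an adjusted p of 0.0682 and 0.0697.

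With 1 array left out, Ccl3 stayed called in both KO groups. Ccl4 lost its call in GPR43 KO without WT replicate 2 or either array labelled GPR43 KO (adjusted p = 0.0772 to 0.208), and in GPR41 KO without WT replicate 2 or either GPR41 KO array (0.0629 to 0.16). Ccr1 lost it in GPR43 KO without WT replicate 2 or either GPR43 KO array (0.0714 to 0.153), and in GPR41 KO without either GPR41 KO array (0.0549 and 0.0689). Ccl5 itself had no call in either direction, and its differences from those of Ccl3 and Ccl4 were not tested.

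Markers of other immune cells moved in these arrays as well. Neutrophil markers had 13 with a probe set, of which 10 fell in GPR43 KO, where 0.553% of all probe sets were called lower, and 11 in GPR41 KO, where 0.748% were. S100a8, a calcium-binding protein of neutrophils, read 1202 and 414 in GPR43 KO, 356 and 254 in GPR41 KO, and 32866 and 56389 in WT. Of 17 markers of macrophages and dendritic cells, 6 fell in GPR43 KO and 7 in GPR41 KO against the same shares, and 0 rose. Tyrobp, Fcer1g and Cd14 had the smallest p in both. The part of neutrophils in the signal of these markers was not tested. The summed signal of the 17 markers was 28361 and 27434 in GPR43 KO, 19793 and 25700.1 in GPR41 KO, and 47897 and 70088 in WT. Lyz1 and Lyz2 weigh most in this sum, with 13415 and 11925 in WT replicate 1. For 10 of the 17 all 4 KO arrays lay below both WT arrays, against 10.8% of all probe sets. They lay above for 1 (Xcr1, near background), against 10.3%. For the others, C1qa, C1qc, Mrc1, Csf1r, Flt3 and Zbtb46, the KO and WT arrays overlapped. B cell markers had 12 with a probe set and 0 called, where 0.762% and 1.06% of all probe sets were called in GPR43 KO and GPR41 KO. Their sums were 1562 and 1173 in GPR43 KO, 1066 and 1447 in GPR41 KO, and 1406 and 1129 in WT. The part of these cells in the values of the T cell genes was not tested.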

How the data were processed

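For each of the 6 colon samples, RNA was isolated with Trizol and a Qiagen kit and 2 µg was amplified and biotin-labelled, per the labels' protocols. Each deposited value is the intensity of 1 probe set, computed by the authors with MAS5, per the submitters' processing notes; no version of it is given. The mean signal without the lowest and highest 2% of probe sets was 500.0 in each array, so the arrays had been scaled to each other. MAS5 subtracts background before it summarises the probes, which makes weak signals unstable.

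Genes were named from the platform annotation: 34958 probe sets had 1 gene symbol, 932 several and 9211 none. The 64 array controls were left out, and the other 45037 probe sets were tested without a filter. For a gene with several probe sets, the brightest by mean log2 signal was used. Before log2 a pseudocount of 18 was added (20th percentile of the values), which understates differences of weak signals. All 6 arrays entered 1 limma 3.58.1 fit in R 4.3.3 with a mean for each group (lmFit, then eBayes with the trend option), which had 3 residual and 5.85 prior degrees of freedom. Tests were two-sided, with Benjamini-Hochberg adjustment over all probe sets and a threshold of 0.05. SE and intervals come from this fit. The script was tested on simulated data.

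The 10 genes and the lists were chosen with earlier results of these data known. Named from each further list were at most 3 genes above background with the smallest p in a comparison, genes in a count of 5 or fewer, and for each member above background in all groups the 3 genes with the highest r; Irgm1 and the other likest genes come from that rule. The values of Gzmc to Gzmg were chosen after the data were seen. Alternatives covered normalization, the pseudocount, filters, the probe set used, the variance model, the replicate block and leaving out each array. The labels do not say that replicate numbers pair the arrays, so the main fit had no block. Deviations of arrays with the same number correlated at 0.0088, -0.0628 and -0.0288, which cannot show whether such arrays were handled together. Arrays of a group correlated at 0.964 to 0.969 and shared no identical signals. Each was counted as 1 sample, though these values cannot show that they came from separate animals.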

Additional observations from a re-analysis of the deposited data

How the results depend on the processing

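None of the 21 fold changes of the 7 genes above background passed the threshold under any of the 16 alternatives that tested it (with 1 probe set a gene and weak genes left out, Cd3e, Gzmb and Prf1 were not tested). Of 327 such values, 311 kept their direction and 16 turned, all of them without a call. Cd3g in GPR43 KO against GPR41 KO turned to -0.083 with quantile normalization and with median centring, and ran from -0.36 to 0.38 with 1 array left out. With 1 array left out, Cd3g in GPR41 KO against WT ran from -0.20 (without GPR41 KO replicate 2) to 0.54. Cd8a in GPR41 KO against WT turned to 0.038 with quantile normalization, 0.039 with median centring and 0.30 with the mean over probe sets, and ran from -0.44 to 0.33 (without WT replicate 2) with 1 array left out. Cd8a in GPR43 KO against WT ran from -0.028 (without WT replicate 1) to 0.75. Prf1 in GPR43 KO against WT turned to 0.20 with the mean over probe sets, and ran from -0.33 to 0.19 (without WT replicate 1) with 1 array left out. Gzmb in GPR43 KO against WT ran from -0.34 to 0.20 (without WT replicate 2), and Ccl5 in GPR41 KO against WT from -0.47 (without GPR41 KO replicate 2) to 1.13. Where an array is left out, the lone array of its group is assumed to vary like the others. The causes of these turns were not tested.

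The calls over all probe sets depend more on the setting. GPR43 KO against WT had 343 calls, 0 with a floor in place of the pseudocount, 214 of genes with the mean over probe sets, 0 without the intensity trend, and 58 to 489 with 1 array left out. GPR41 KO against WT had 476 calls, and 0, 291, 8, and 51 to 651 under those settings. GPR43 KO against GPR41 KO had 0 calls, 2 with median centring, 1 with probe sets above the 40th percentile only, and 0 to 3 with 1 array left out. With the replicate number as a block, the calls were 298, 402 and 0 for these comparisons, and no member was called. The calls of Zap70, Lcp2, Fyb, Ccl4, Ccr1, Irf7, Aqp8 and Ccl3 were all lost with the floor and without the trend, except Ccl3 in GPR41 KO without the trend (adjusted p = 0.0398). The count of 7 members above background was 5 with the 99th percentile of the background probe sets.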

Other observations

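Of 10 listed markers of plasma cells, 9 had a probe set, 8 were above background and 0 were called. Among all probe sets, 0.762% were called in GPR43 KO against WT and 1.06% in GPR41 KO against WT. For 3 of the 9 all 4 KO arrays lay above both WT arrays, against 10.3% of all probe sets. Jchain, which links IgA into dimers, read 14626 and 11138 in GPR43 KO, 14374 and 11388 in GPR41 KO, and 7798 and 4073 in WT. The limma differences were 1.18 ± 0.28 in GPR43 KO against WT (adjusted p = 0.133) and 1.18 ± 0.28 in GPR41 KO against WT (adjusted p = 0.121), higher in 4 of 4 KO arrays. Mast cell markers had 10 with a probe set and 3 above background (Hdc, Kit and Cma1). Of the 10, 1 was called, lower in both KO groups. Among all probe sets, 0.553% were called lower in GPR43 KO and 0.748% in GPR41 KO. Kit and Cma1 had no call, at 0.28 and 0.31 in GPR43 KO and -0.10 and 0.15 in GPR41 KO against WT. The 1 called was Hdc, which makes histamine and whose signal was not traced to a cell type. It read 17.4 and 13.8 in GPR43 KO, 4.50 and 4.93 in GPR41 KO, and 716 and 1962 in WT, at least 13.7-fold lower in GPR43 KO (adjusted p = 0.00322) and at least 14.7-fold lower in GPR41 KO (adjusted p = 0.00171) than in WT.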
